A study of Mus musculus with 11 samples.

Results

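The NRF2 and thiol antioxidant genes are 36 mouse genes that supply cells with reduced thioredoxin and glutathione, remove peroxide and superoxide, make NADPH and store iron, together with the transcription factor NRF2 and its inhibitor. They were picked by gene symbol from a table of 31936 genes, and all 36 were found in it. Of these, 34 had enough reads to be tested among 12969 tested genes. Expression was measured by RNA sequencing in peritoneal macrophages of female mice, elicited with thioglycollate, an irritant broth that draws monocytes into the abdominal cavity. In 6 libraries the cells had received a microRNA-150 mimic, a synthetic RNA duplex that acts like the mature microRNA, and in 5 a negative control. Strain, age, delivery, dose and time are not given in the sources used here. Nothing in the labels tells whether the replicates were separate animals or cultures, and p-values therefore measure only the spread between these libraries, which may be technical. In bulk RNA, fewer cells of a type and less RNA per cell cannot be told apart.

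NRF2, the product of Nfe2l2, is held at a low level by KEAP1, which presents it to a cullin ubiquitin ligase for destruction. When oxidants or electrophiles modify cysteines of KEAP1, NRF2 escapes, pairs with a small MAF protein on antioxidant response elements and activates genes for glutathione synthesis, the thioredoxin system, NADPH supply and heme and iron handling. Macrophages rely on these enzymes because they make superoxide themselves and take up iron from engulfed red cells.

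Reads in genes numbered 20313901 to 25473814 per mimic library and 18538509 to 22668862 per control library. Macrophage markers were abundant in every library, with a summed level over 9 markers of 16700 to 19900 CPM, the usual depth-scaled read count, in mimic and 18400 to 20700 CPM in control libraries. Lyz2 was the largest part, averaging 11130 CPM in mimic and 13000 CPM in control libraries. Single macrophage markers moved both ways in the fit to all libraries. Fcgr1 and Adgre1 were called higher (log2 fold changes 1.32 and 0.175) and Lyz2 and Cd14 lower (-0.23 and -0.26), while 5 were not called. Neutrophil markers, nearly all of them S100a8 reads, summed to 8.26 to 14.6 CPM in mimic and 13.3 to 16.5 CPM in control libraries. B cell markers summed to 1.22 to 1.99 CPM in mimic and 1.67 to 2.15 CPM in control libraries, and T and NK cell markers to 0.631 to 1.1 CPM in mimic and 0.777 to 1.13 CPM in control libraries. Mast cell and eosinophil markers, nearly all of them Siglecf reads, summed to 27.8 to 29.2 CPM in mimic and 33.6 to 36.4 CPM in control libraries, without overlap. Mesothelial and fibroblast markers summed to 17.9 to 40.1 CPM in mimic and 28.1 to 38.4 CPM in control libraries, and erythroid markers to 0.371 to 0.942 CPM in mimic and 0.376 to 1.24 CPM in control libraries. No listed marker was at 0 in every library, and the part of other cells in the results below was not tested. The mimic libraries differed from each other along transcript length. Across 12939 genes, which are not independent, the Spearman correlation of a library's deviation from the mean of all libraries with transcript length was 0.302, 0.353 and 0.294 in mimic replicates 3, 4 and 6, so short transcripts were low there. It was 0.0499 in mimic replicate 2, -0.094 in mimic replicate 5, -0.357 in mimic replicate 1, and between -0.26 and -0.155 in the controls. The part of this trend in single members was not tested beyond these settings: results are given with and without mimic replicates 3, 4 and 6 and after each library was corrected for that trend.

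A common form of the antioxidant response element core is TGACNNNGC, which reads GCNNNGTCA on the other strand. Only this form was searched. A form with G in place of the first C was not counted, and the Srxn1 promoter holds such a match before its start. Of the 36 members, 32 had a promoter in the RefSeq table (GRCm38.p6, 250 bases before to 50 bases after each annotated start), and 10 held the core on either strand in at least one promoter. Among all 32851 promoters in the table, 12.4% held it, and 14.0% of the 27025 genes. The core stood in 7 of the 19 matched members that fell with the mimic and in 3 of the 13 other matched members. The 10 windows are printed to show where this core stands, and they are not known to act as elements in these cells. Each runs 5′ to 3′ along the strand of its gene, with 10 bases on either side of the core, which is in capitals.
Txnrd1: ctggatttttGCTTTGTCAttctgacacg
Srxn1: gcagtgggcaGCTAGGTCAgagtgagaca
Gclm: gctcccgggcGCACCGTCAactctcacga
Prdx1: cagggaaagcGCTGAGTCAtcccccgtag
Mgst1: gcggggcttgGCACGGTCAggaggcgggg
Sod1: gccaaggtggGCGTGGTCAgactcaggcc
Pgd: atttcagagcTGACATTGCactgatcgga
Nfe2l2: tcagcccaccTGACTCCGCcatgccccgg
G6pdx: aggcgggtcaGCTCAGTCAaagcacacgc
Me1: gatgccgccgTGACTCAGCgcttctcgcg

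In GRCm38.p6 the windows lie at chr10:82859104-82859132 (Txnrd1, plus strand), chr2:152105542-152105570 (Srxn1, plus), chr3:122245413-122245441 (Gclm, plus), chr4:116685456-116685484 (Prdx1, plus) and chr6:138140461-138140489 (Mgst1, plus). The others lie at chr16:90220696-90220724 (Sod1, plus), chr4:149166061-149166089 (Pgd, minus), chr2:75704885-75704913 (Nfe2l2, minus), chrX:74428919-74428947 (G6pdx, minus) and chr9:86695902-86695930 (Me1, minus). The core began 134 bases before the start in Gclm, 133 in Prdx1, 92 in Txnrd1 and 240 in Nfe2l2, whereas those of Srxn1 and Pgd lay just inside the transcribed part. Some of these starts lie inside the annotated gene: counted from its 5′ end, the start lies 25255 bases inside for Txnrd1, 689 for Pgd, 314 for G6pdx and 211 for Mgst1. For Txnrd1 and Pgd a promoter nearer to the 5′ end of the gene is also in the table and does not hold the core. A match is a description of these letters and not a measured binding site. Of 25 further NRF2 target genes with a promoter in the table, 6 held the core.

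The comparison asks which of these transcripts change when the macrophages receive the mimic. With the mimic, 20 of the 34 tested members fell and 0 rose, while 14 did not pass the test (limma on the deposited log2 CPM, adjusted p below 0.05 over all tested genes). Over all tested genes 14.6% were called lower and 15.4% higher. The median log2 fold change of the 34 was -0.25, against 0.00 over all tested genes, and 30 of the 34 values were negative. In 11 members every mimic library lay below every control, which held for 6.04% of all tested genes. In 0 members every mimic library lay above every control, which held for 8.89% of all tested genes. The falls were moderate, from 11.2% for Gss to 38.0% for Txn1. They took in thioredoxin and its reductase, both glutathione peroxidases, catalase, the later steps of the pentose phosphate pathway and the ferritin chains, while Nfe2l2, Keap1, Gclc, Hmox1, Sod2 and G6pdx were not called. The members were tested together with all other genes and no test was made over the group.

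**Figure D1:**
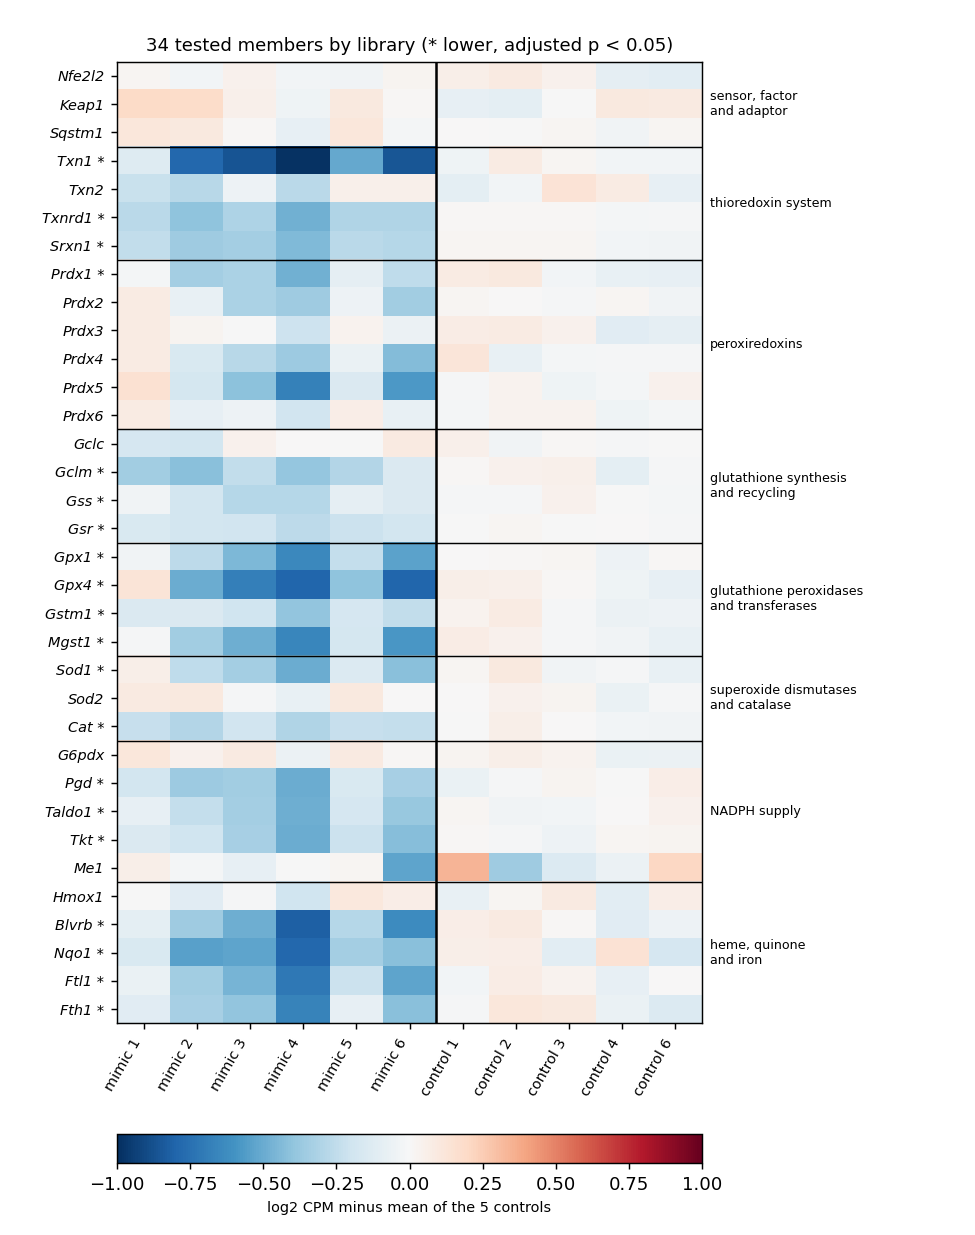
Log2 CPM of each of the 34 tested members (rows, grouped by role) in each library (columns, mimic left of control) minus the mean of the 5 controls. Blue is lower than the control mean and red higher; the rows of Txn1, Gpx4, Blvrb and Nqo1 are darkest in mimic replicate 4, and mimic replicate 1 is nearest to the controls.

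The sensor, its target and their adaptor did not pass the test. Nfe2l2 (ENSMUSG00000015839, chromosome 2, 75675513 to 75704641, minus strand, GRCm38), which encodes NRF2, had 234.5 to 248 CPM with a median of 240.5 in mimic libraries, and 250, 257, 248, 226 and 224 CPM in control libraries. The mimic range lay inside that of the controls, and the log2 fold change was -0.00 (95% interval -0.09 to 0.09; adjusted p = 0.996). Keap1, the inhibitor and oxidant sensor, averaged 68.4 ± 4.49 CPM in mimic (SD, n = 6) and 64.6 ± 4.14 CPM in control libraries (SD, n = 5), a log2 fold change of 0.08 (adjusted p = 0.264). Sqstm1, the autophagy adaptor p62 that can pull KEAP1 away from NRF2, averaged 1023 ± 58.1 CPM in mimic and 994 ± 15.4 CPM in control libraries (log2 fold change 0.04; adjusted p = 0.502). Without mimic replicates 3, 4 and 6 both passed the test as higher, Keap1 by 0.16 on the log2 scale (adjusted p = 0.0242) and Sqstm1 by 0.11 (adjusted p = 0.016). Exons of Keap1 share 510 bases and those of Sqstm1 580 bases with a gene on the opposite strand, and whether the counting used strand is not given in the sources used here. Their values are therefore uncertain.

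Of the 4 tested thioredoxin system genes, 3 fell. Txn1 (ENSMUSG00000028367, chromosome 4, 57943373 to 57956411, minus strand), cytosolic thioredoxin, which reduces protein disulfides, had 617, 393, 371, 340, 473 and 373 CPM in mimic replicates 1 to 6, against 656, 714, 684, 662 and 663 CPM in control libraries. Every mimic library was below every control, with mimic replicate 1 close to them and the other mimic libraries well apart. The log2 fold change was -0.69 ± 0.127 (SE; adjusted p = 0.00222), the largest fall among the members. It was -0.53 after the length correction (adjusted p = 0.000216), and -0.48 without mimic replicates 3, 4 and 6, which did not pass the test (adjusted p = 0.072). Txnrd1 (ENSMUSG00000020250, chromosome 10, 82833951 to 82897712, plus strand), the selenoprotein that reduces thioredoxin with NADPH, had 471, 430, 458, 408, 461 and 461 CPM in mimic libraries, against 574, 574, 571, 559 and 563 CPM in control libraries. All mimic libraries, replicate 1 included, stood clear of the controls. Txnrd1 fell by 0.34 ± 0.0405 on the log2 scale, or by 21.2% (adjusted p = 1e-05). Srxn1 (ENSMUSG00000032802, chromosome 2, 152105516 to 152111376, plus strand), sulfiredoxin, which restores overoxidised peroxiredoxins, had 405, 376, 380, 354, 399 and 395 CPM in mimic libraries, against 487, 488, 486, 472 and 469 CPM in control libraries, again without overlap. It fell by 0.32 ± 0.0396 on the log2 scale (adjusted p = 1.6e-05). Txn2, the mitochondrial thioredoxin, averaged 27.2 ± 2.96 CPM in mimic and 29.5 ± 2.12 CPM in control libraries and was not called (log2 fold change -0.12; adjusted p = 0.211). Txnrd2, the mitochondrial reductase, had 6 reads over the mimic and 5 over the control libraries and was too low to test.

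**Figure D2:**
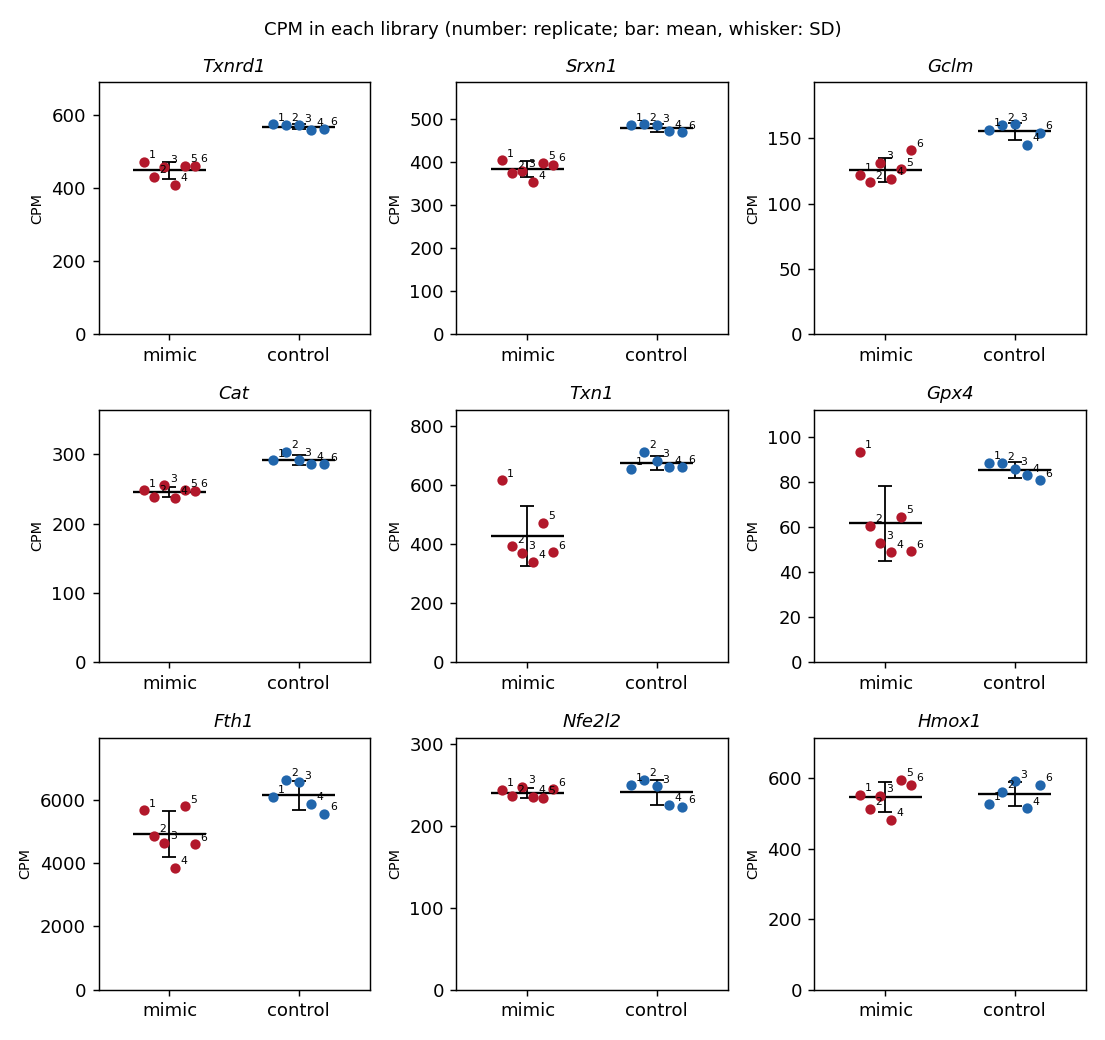
CPM of 9 members in each library, mimic (red) left of control (blue), with the replicate number beside each point, the mean as a bar and the SD as a whisker (n = 6 mimic, n = 5 control). The groups do not overlap for Txnrd1, Srxn1, Gclm, Cat and Txn1, whereas mimic replicate 1 of Gpx4 lies above the controls and Nfe2l2 and Hmox1 overlap.

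Of the 6 peroxiredoxins, thiol peroxidases that are recycled by thioredoxin or glutathione, only Prdx1 passed the test. Prdx1 (ENSMUSG00000028691, chromosome 4, 116685544 to 116700822, plus strand), the abundant cytosolic form and a known NRF2 target, had 1606, 1289, 1311, 1167, 1535 and 1363 CPM in mimic libraries, against 1727, 1747, 1596, 1544 and 1543 CPM in control libraries. Mimic replicate 1 lay among the controls and the other 5 below all of them. Prdx1 fell by 0.25 ± 0.0703 on the log2 scale (adjusted p = 0.0156). Without mimic replicates 3, 4 and 6 the value was -0.15 (adjusted p = 0.291). Prdx5, found in mitochondria, peroxisomes and cytosol, had a larger difference with a wider spread: 266 to 473 CPM (median 348) in mimic libraries, against 423, 436, 413, 420 and 439 CPM in control libraries. Its log2 fold change was -0.31 (95% interval -0.57 to -0.04; adjusted p = 0.0777). Mimic replicate 1 was above every control and the other 5 were below. Prdx4, which resides in the endoplasmic reticulum, had 25.9 to 37.1 CPM in mimic and 33.1 to 38.0 CPM in control libraries, a log2 fold change of -0.20 (adjusted p = 0.0621). Cytosolic Prdx2 had 69.4 to 94.0 CPM in mimic and 86.7 to 89.9 CPM in control libraries, a log2 fold change of -0.18 (adjusted p = 0.0711). Without mimic replicate 1 all of Prdx2, Prdx4 and Prdx5 passed the test, with log2 fold changes of -0.23, -0.26 and -0.40 (adjusted p = 0.00431, 0.00379 and 0.00169), whereas without mimic replicates 3, 4 and 6 they stood at -0.01, -0.04 and -0.06. Prdx4 also passed without mimic replicate 5 (-0.23; adjusted p = 0.0444). Mitochondrial Prdx3 had 45.5 to 55.8 CPM in mimic and 48.7 to 55.8 CPM in control libraries, and Prdx6, which uses glutathione, had 96.3 to 116 CPM in mimic and 107 to 113 CPM in control libraries. Neither was called (log2 fold changes -0.02 and -0.04; adjusted p = 0.821 and 0.522). Prdx2 shares 173 and 177 exon bases with Junb and Rnaseh2a on the other strand, and Prdx5 shares 409 with Trmt112.

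Of the 4 genes for glutathione synthesis and recycling, 3 fell, and the catalytic subunit of the first enzyme was not called. Gclc, the catalytic subunit of glutamate-cysteine ligase, had 70.9 to 85.9 CPM (median 80.7) in mimic libraries, against 83.4, 78.5, 81.3, 79.8 and 80.2 CPM in control libraries. It was not called (log2 fold change -0.04, 95% interval -0.14 to 0.07; adjusted p = 0.617). Gclm (ENSMUSG00000028124, chromosome 3, 122245557 to 122270732, plus strand), the modifier subunit that raises the efficiency of the enzyme, had 122, 116, 131, 119, 126 and 141 CPM in mimic libraries, against 157, 160, 161, 145 and 154 CPM in control libraries. No mimic library reached a control, and Gclm fell by 0.31 ± 0.0497 on the log2 scale (adjusted p = 0.000341). Within each library, the ratio of Gclm to Gclc CPM was 1.70, 1.64, 1.58, 1.47, 1.57 and 1.64 with the mimic, against 1.88, 2.04, 1.98, 1.82 and 1.92 in controls, also without overlap. This ratio does not depend on how libraries are scaled, and it was chosen after the values were seen and was not tested. Gsr, glutathione reductase, had 177 to 191 CPM (median 186) in mimic libraries, against 212, 215, 211, 212.5 and 209.8 CPM in control libraries. The groups did not overlap, and Gsr fell by 0.20 ± 0.0336 on the log2 scale (adjusted p = 0.000538). Gss, glutathione synthetase, fell by 0.17 ± 0.0554 (adjusted p = 0.0289), with 14.7 to 17.5 CPM in mimic libraries, against 17.7 to 18.6 CPM in control libraries, without overlap. The call of Gss was lost without mimic replicates 3, 4 and 6 (-0.10; adjusted p = 0.268) and without mimic replicate 3 or 4 or control replicate 1, 2, 3 or 4 alone (adjusted p between 0.051 and 0.0686). On the other strand, Gss also shares 395 exon bases with Acss2, 385 with Gssos2 and 322 with Gssos1, and Gclm shares 296 with a noncoding gene. Because the strand setting of the counting is not given, the values of Gss and Gclm are uncertain.

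All 4 tested glutathione peroxidases and transferases fell. Gpx4 (ENSMUSG00000075706, chromosome 10, 80047166 to 80056439, plus strand), the selenoprotein that removes lipid hydroperoxides from membranes, had 93.5, 60.6, 53.2, 49.2, 64.7 and 49.3 CPM in mimic libraries, against 88.8, 88.5, 86.1, 83.1 and 80.9 CPM in control libraries. Mimic replicate 1 was above every control and the other 5 were below. The log2 fold change was -0.51 with a wide 95% interval of -0.81 to -0.20 (adjusted p = 0.0191). The value was -0.34 after the length correction (adjusted p = 0.0121), and -0.26 without mimic replicates 3, 4 and 6 (adjusted p = 0.314). Without mimic replicate 4 alone the adjusted p was 0.055. Gpx1 (ENSMUSG00000063856, chromosome 9, 108338903 to 108340343, plus strand), the abundant cytosolic selenoprotein that reduces hydrogen peroxide, had 1236, 1055, 927, 808, 1073 and 874 CPM in mimic libraries, against 1272, 1278, 1285, 1221 and 1274 CPM in control libraries. Only mimic replicate 1 reached the lowest control. Gpx1 fell by 0.36 ± 0.0847 on the log2 scale (adjusted p = 0.00654), by 0.21 after the length correction (adjusted p = 0.00182) and by 0.18 without mimic replicates 3, 4 and 6 (adjusted p = 0.00479). Mgst1, a membrane-bound transferase and peroxidase, fell by 0.38 ± 0.096 on the log2 scale (adjusted p = 0.011), with 223 to 346 CPM in mimic libraries, against 332 to 368 CPM in control libraries. Without mimic replicates 3, 4 and 6 it stood at -0.18 (adjusted p = 0.118). Gstm1, a cytosolic transferase that joins glutathione to electrophiles, fell by 0.22 ± 0.048 (adjusted p = 0.00388) without overlap, with 174 to 207 CPM in mimic libraries, against 219.5 to 242 CPM in control libraries. Its call was lost with the correction by longest transcript (-0.10; adjusted p = 0.0505) and held with the correction by principal transcript (-0.13; adjusted p = 0.0117). Gstm1 has close relatives in a gene cluster, so its value is uncertain. Gstp1 had 1 read over the mimic and 0 over the control libraries and was too low to test.

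Catalase and cytosolic superoxide dismutase fell, and mitochondrial superoxide dismutase was not called. Cat (ENSMUSG00000027187, chromosome 2, 103453849 to 103485160, minus strand), the peroxisomal enzyme that breaks down hydrogen peroxide, had 248, 238, 255, 237, 248 and 247 CPM in mimic libraries, against 291, 303, 292.5, 286 and 285 CPM in control libraries. The groups did not overlap, and the log2 fold change of -0.25 ± 0.0351 (adjusted p = 8.6e-05) hardly moved under the length correction (-0.23) or without mimic replicates 3, 4 and 6 (-0.25). Sod1, the cytosolic copper-zinc enzyme, had 102, 81.7, 77.2, 69.1, 88.6 and 73.3 CPM in mimic libraries, against 99.1, 104, 95.3, 96.9 and 93.0 CPM in control libraries. It fell by 0.26 ± 0.0785 on the log2 scale (adjusted p = 0.0203), with mimic replicate 1 inside the control range. The longest annotated Sod1 transcript has 3970 nt and the principal one 641 nt. With the correction by longest transcript Sod1 stood at -0.29 (adjusted p = 0.0224), with that by principal transcript at -0.03 (adjusted p = 0.514), and without mimic replicates 3, 4 and 6 at -0.11 (adjusted p = 0.248). Without control replicate 2 the adjusted p was 0.0535. Sod2, the mitochondrial manganese enzyme, averaged 163.8 ± 8.05 CPM in mimic and 159.9 ± 4.79 CPM in control libraries (log2 fold change 0.03, 95% interval -0.05 to 0.12; adjusted p = 0.55).

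NADPH, which feeds both thiol systems, comes largely from the pentose phosphate pathway. G6pdx, the entry enzyme, had 199.5 to 224 CPM (median 217) in mimic libraries, against 212, 216, 213, 199 and 199.8 CPM in control libraries, and was not called (log2 fold change 0.05, 95% interval -0.04 to 0.13; adjusted p = 0.404). Its exons share 418 bases with Ikbkg on the other strand. The 3 members that act after it in the pathway fell. Pgd (ENSMUSG00000028961, chromosome 4, 149149991 to 149166771, minus strand), which makes the further NADPH of the pathway, had 270.1, 239, 242, 218, 277 and 245 CPM in mimic libraries, against 293, 304, 312, 306 and 321 CPM in control libraries, and fell by 0.31 ± 0.0541 on the log2 scale (adjusted p = 0.000625). Tkt, transketolase, fell by 0.30 ± 0.0567 (adjusted p = 0.00116), with 476 to 609.9 CPM in mimic libraries, against 649.5 to 687 CPM in control libraries. Taldo1, transaldolase, fell by 0.28 ± 0.0588 (adjusted p = 0.00251), with 773 to 1024 CPM in mimic libraries, against 1060.0 to 1114 CPM in control libraries. None of Pgd, Tkt and Taldo1 overlapped between groups, and all passed the test after either length correction and without mimic replicates 3, 4 and 6. The ratio of Pgd to G6pdx CPM was 1.09 to 1.25 in mimic libraries, against 1.38 to 1.61 in control libraries. Like the other ratios, it was not planned and was not tested. Groups overlapped for Sod1 over Sod2 (0.455 to 0.598 in mimic, 0.584 to 0.635 in control libraries). They also overlapped for Blvrb over Hmox1 (0.375 to 0.569 in mimic, 0.557 to 0.667 in control libraries). For Txnrd1 over Nfe2l2 they did not (1.73 to 1.97 in mimic, 2.23 to 2.51 in control libraries). Me1, the cytosolic malic enzyme, was low in these cells, with 1.50 to 2.26 CPM in mimic and 1.70 to 2.75 CPM in control libraries (log2 fold change -0.09; adjusted p = 0.651).

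Of the 5 heme, quinone and iron genes, 4 fell and Hmox1 was not called. Hmox1 (ENSMUSG00000005413, chromosome 8, 75093621 to 75100589, plus strand), heme oxygenase, an inducible NRF2 target, had 482 to 596 CPM (median 551) in mimic libraries, against 527, 561, 591, 515 and 582 CPM in control libraries (log2 fold change -0.03, 95% interval -0.14 to 0.09; adjusted p = 0.734). Blvrb, biliverdin reductase B, acts on heme breakdown products. It had 314, 262, 239.6, 191, 277 and 218 CPM in mimic libraries, against 352, 357, 339, 311 and 324 CPM in control libraries. Only mimic replicate 1 reached the controls, and Blvrb fell by 0.44 ± 0.102 on the log2 scale (adjusted p = 0.00672). Nqo1 (ENSMUSG00000003849, chromosome 8, 107388225 to 107403206, minus strand), the quinone reductase often used as a readout of NRF2, was low, with 7.23, 5.54, 5.58, 4.67, 6.37 and 6.03 CPM in mimic libraries, against 8.38, 8.44, 7.49, 8.89 and 7.16 CPM in control libraries. It fell by 0.46 ± 0.0997 (adjusted p = 0.00335), and by 0.34 without mimic replicates 3, 4 and 6 (adjusted p = 0.017).

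The ferritin chains were the most abundant members. Fth1 (ENSMUSG00000024661, chromosome 19, 9980598 to 9985098, plus strand), the ferroxidase heavy chain of the iron store, had 5680, 4875, 4655, 3865, 5807 and 4601 CPM in mimic libraries, against 6094, 6648, 6561, 5872 and 5569 CPM in control libraries. Mimic replicates 1 and 5 lay inside the control range and the other 4 below it. Fth1 fell by 0.33 ± 0.0891 on the log2 scale (adjusted p = 0.013) and stood at -0.17 without mimic replicates 3, 4 and 6 (adjusted p = 0.198). Ftl1, the light chain, had 2221, 1821, 1684, 1410 and 1997 CPM in mimic replicates 1 to 5 and 1607 CPM in mimic replicate 6, against 2275, 2436, 2380, 2192 and 2324 CPM in control libraries. It fell by 0.39 ± 0.09 (adjusted p = 0.00632) and by 0.21 without mimic replicates 3, 4 and 6 (adjusted p = 0.0212). Both chains together took 0.543% to 0.767% of reads in mimic and 0.803% to 0.901% in control libraries. Their ratio, Ftl1 over Fth1, overlapped between groups, with 0.344 to 0.391 in mimic and 0.363 to 0.417 in control libraries. Both genes have processed copies elsewhere in the genome, so their values are uncertain where the counting split shared reads.

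Per kilobase of principal transcript, the order of levels was led by Fth1, with 5290 ± 784 CPM per kb in mimic (SD, n = 6) and 6620 ± 492 CPM per kb in control libraries (SD, n = 5). Ftl1 followed with 1850 ± 299 CPM per kb in mimic and 2400 ± 97.2 CPM per kb in control libraries, and Gpx1 with 929 ± 146 CPM per kb in mimic and 1180 ± 23.7 CPM per kb in control libraries. Next came Taldo1 with 728 ± 74.6 CPM per kb in mimic and 882 ± 18.7 CPM per kb in control libraries, and Prdx1 with 601 ± 71.4 CPM per kb in mimic and 711 ± 43.2 CPM per kb in control libraries. In mimic libraries Sqstm1 at 502 ± 28.5 and Txn1 at 407 ± 97.9 CPM per kb came after these, and from Gpx1 down to Txn1 the SD range of each gene met that of the next. In control libraries the order of that pair was the other way round, with Txn1 at 643 ± 22.6 and Sqstm1 at 488 ± 7.58 CPM per kb. At the low end were Gss with 8.14 ± 0.572 CPM per kb in mimic and 9.16 ± 0.167 CPM per kb in control libraries, Nqo1 with 3.80 ± 0.559 CPM per kb in mimic and 5.20 ± 0.463 CPM per kb in control libraries, and Me1 with 0.624 ± 0.0845 CPM per kb in mimic and 0.669 ± 0.128 CPM per kb in control libraries. Catalytic Gclc at 23.0 ± 1.80 and modifier Gclm at 22.5 ± 1.61 CPM per kb lay within each other's spread in mimic libraries, while in control libraries Gclm at 27.8 ± 1.14 was above Gclc at 23.6 ± 0.532 CPM per kb. The whole group took 1.42% to 1.84% of reads in mimic and 1.97% to 2.07% in control libraries.

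The mimic libraries did not show the falls equally. The median deviation of the 34 tested members from the control mean was -0.03, -0.22, -0.30, -0.39, -0.14 and -0.29 on the log2 scale in mimic replicates 1 to 6, against -0.03 to 0.04 in single control libraries. Members below the control mean numbered 21 in mimic replicate 1 and 33 in mimic replicate 4. The members' transcripts were shorter than average, with a median longest transcript of 2384.5 nt against 3245 nt over all tested genes, and 2178 nt for those that fell. By principal transcript the gap was wider, with a median of 1421 nt for those that fell. It was 2218 nt for the other tested members and 2842 nt over all tested genes. Over all tested genes, 30.4% of those below 1000 nt were called lower and their median log2 fold change was -0.17, whereas 7.53% of those of 5000 nt or more were called lower and their median was 0.07. After each library was corrected for transcript length, 19 members fell and 0 rose, with a median of -0.19, where 14.9% of all tested genes were called lower and 16.3% higher. Without mimic replicates 3, 4 and 6, 13 members fell and 2 rose, with a median of -0.15, where 6.83% of all tested genes were called lower and 9.36% higher. In all of the fit to all libraries, both length corrections and the fit without mimic replicates 3, 4 and 6, 12 members were called lower: Txnrd1, Srxn1, Gclm, Gsr, Gpx1, Cat, Pgd, Taldo1, Tkt, Blvrb, Nqo1 and Ftl1. The share of all tested genes that met all of these settings was not counted. The longest annotated transcripts of these 12 members ran from 968 nt for Ftl1 to 5589 nt for Gclm. Without any filter on low genes, 8 calls were lost, those of Prdx1, Gss, Gpx1, Gpx4, Mgst1, Sod1, Ftl1 and Fth1, that of Prdx4 was gained, and 13 members were called lower.

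**Figure D3:**
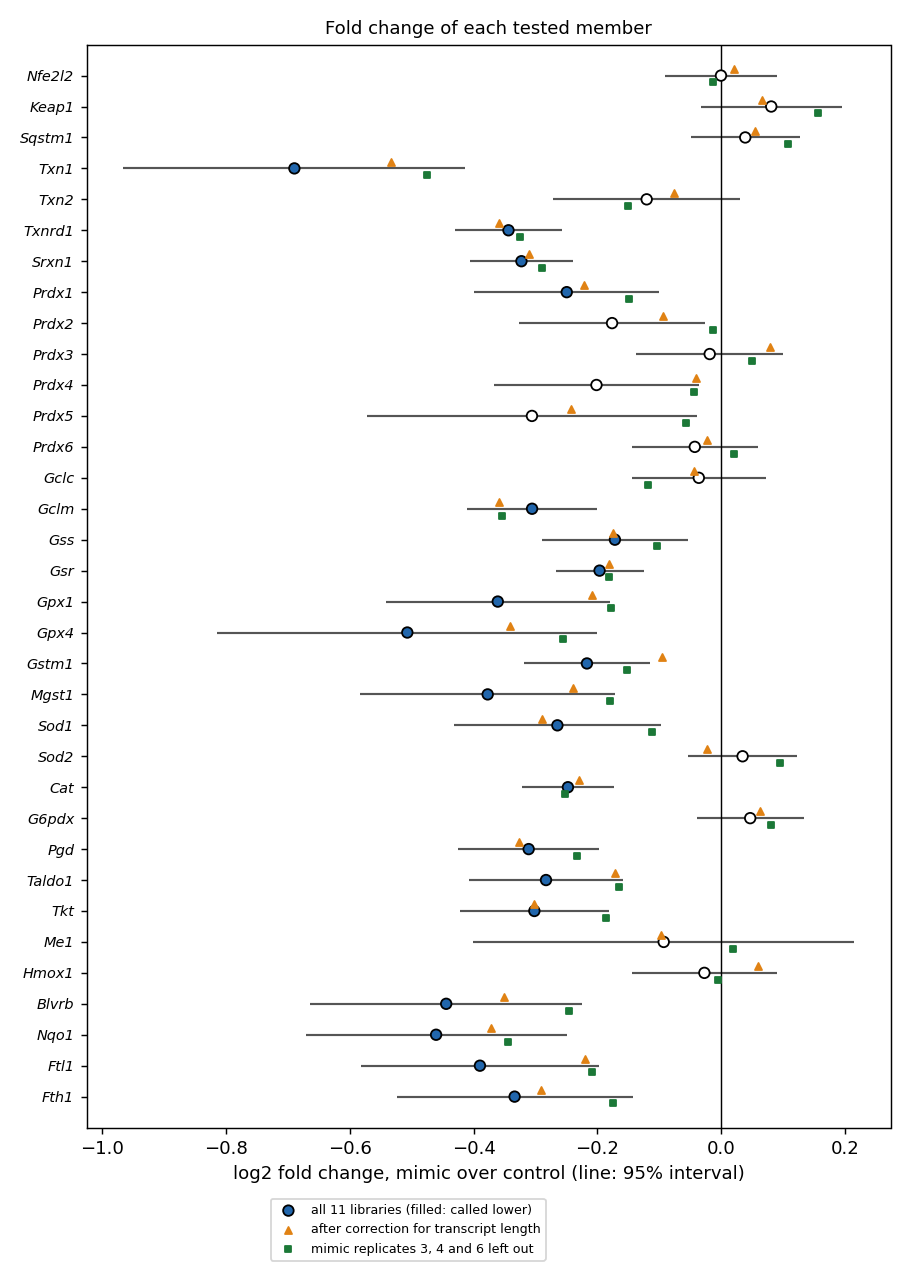
Log2 fold change, mimic over control, of each tested member with its 95% interval (circles, filled where called lower), after the correction for transcript length (triangles) and without mimic replicates 3, 4 and 6 (squares). For Txnrd1, Srxn1, Gclm, Gsr and Cat the symbols lie close together, whereas for Txn1, Gpx4, Prdx5 and Mgst1 the squares lie nearer to 0.

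**Figure D4:**
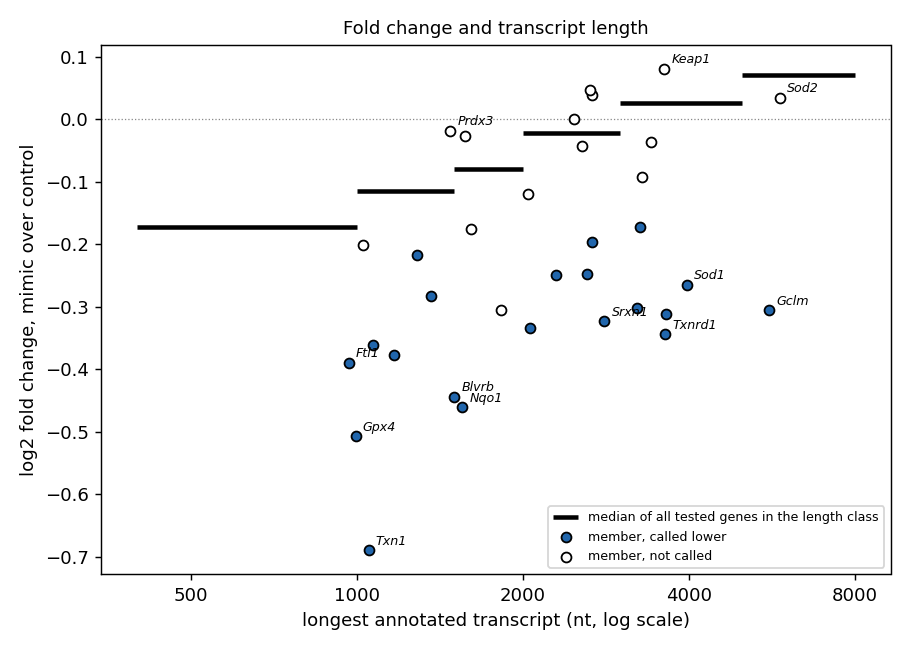
Log2 fold change, mimic over control, of each tested member against its longest annotated transcript in nt (log axis), with black bars for the median of all tested genes in 6 length classes, the outer ones open-ended. The bars run from -0.17 below 1000 nt to 0.07 at 5000 nt or more, and every member called lower lies below the bar of its class.

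Other genes of the pathway gave the following counts. They are read against the 14.6% of all tested genes called lower and 15.4% called higher. Of 27 tested further NRF2 targets, 12 fell (44.4%) and 0 rose, with a median of -0.16. Cbr3, a carbonyl reductase, averaged 10.3 ± 1.60 CPM in mimic and 17.0 ± 1.42 CPM in control libraries and fell by 0.73 ± 0.0934 on the log2 scale (adjusted p = 2.69e-05). Gsta3, a glutathione transferase, fell by 0.61 (adjusted p = 0.000242), the heme transporter gene Slc48a1 by 0.36 (adjusted p = 0.000707) and Cbr1 by 0.31 (adjusted p = 0.00105). In all of Cbr3, Gsta3, Slc48a1 and Cbr1 every mimic library lay below every control. Of 18 tested partners and regulators of NRF2, 2 rose (11.1%) and 3 fell (16.7%), with a median of 0.03, so the shares were near those of all tested genes. Trim21, a ubiquitin ligase, rose by 0.65 ± 0.0559 (adjusted p = 1.88e-07), Maff, a small MAF partner, fell by 0.73 ± 0.0872 (adjusted p = 1.3e-05), Nfe2l1, the relative of NRF2, rose by 0.18 (adjusted p = 0.00329), and Jund fell by 0.48 (adjusted p = 0.00401).

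Of 28 other tested thiol redox genes, 2 rose (7.14%) and 7 fell (25%), with a median of -0.00. Sesn1, a sestrin, fell by 0.30 ± 0.046 (adjusted p = 0.000175), Gpx3, a secreted glutathione peroxidase, by 0.46 (adjusted p = 0.00103) and Glrx5, a mitochondrial glutaredoxin, by 0.31 (adjusted p = 0.00531), whereas the cytosolic glutaredoxin gene Glrx rose by 0.30 (adjusted p = 0.00681). Of 16 tested genes for other selenoproteins and for selenocysteine insertion, 2 rose (12.5%) and 7 fell (43.8%), with a median of -0.12. Selt rose by 0.20 (adjusted p = 0.00331) and Vimp by 0.16 (adjusted p = 0.0144), while Sephs2, which makes selenophosphate, fell by 0.22 (adjusted p = 0.00658) and Selk by 0.33 (adjusted p = 0.00969). Of the members, Txnrd1, Gpx1 and Gpx4 fell and are annotated with selenocysteine.

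Genes that make superoxide or handle iron held calls in both directions. Of 8 tested NADPH oxidase genes, 1 rose and 4 fell, with a median of -0.17, whereas without mimic replicates 3, 4 and 6, 3 rose and 1 fell, with a median of -0.03. Cybb, the catalytic subunit, rose by 0.23 ± 0.0459 (adjusted p = 0.00194), whereas its membrane partner Cyba fell by 0.35 (adjusted p = 0.0278) and the GTPase gene Rac1 by 0.19 (adjusted p = 0.0227). For Cyba, 1 mimic library lay above every control, and the value was -0.14 after the length correction (adjusted p = 0.0482). Without mimic replicates 3, 4 and 6, Cyba (-0.12; adjusted p = 0.215) and Rac1 (-0.12; adjusted p = 0.121) were not called, while Cybb was (0.19; adjusted p = 0.00647). Of 13 tested genes for iron uptake, export and sensing, 1 rose and 4 fell, with a median of -0.02. Tfrc, the transferrin receptor, averaged 1529 ± 144.5 CPM in mimic and 1214 ± 39.1 CPM in control libraries and rose by 0.33 ± 0.0566 (adjusted p = 0.000608), with every mimic library above every control. Pcbp1, an iron chaperone, fell by 0.24 (adjusted p = 0.00902), Pcbp2 by 0.18 (adjusted p = 0.0361) and Slc11a1, a phagosomal metal transporter, by 0.15 (adjusted p = 0.0392). Without mimic replicates 3, 4 and 6, when 6.83% of all tested genes were called lower and 9.36% higher, 0 of these 13 iron genes fell and 1 rose. At that setting 1 of the 16 selenoprotein genes fell (6.25%) and 2 rose, 4 of the 28 other thiol redox genes fell and 1 rose, 2 of the 18 partners and regulators fell and 2 rose, and 8 of the 27 further NRF2 targets fell (29.6%) and 0 rose.

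**Figure D5:**
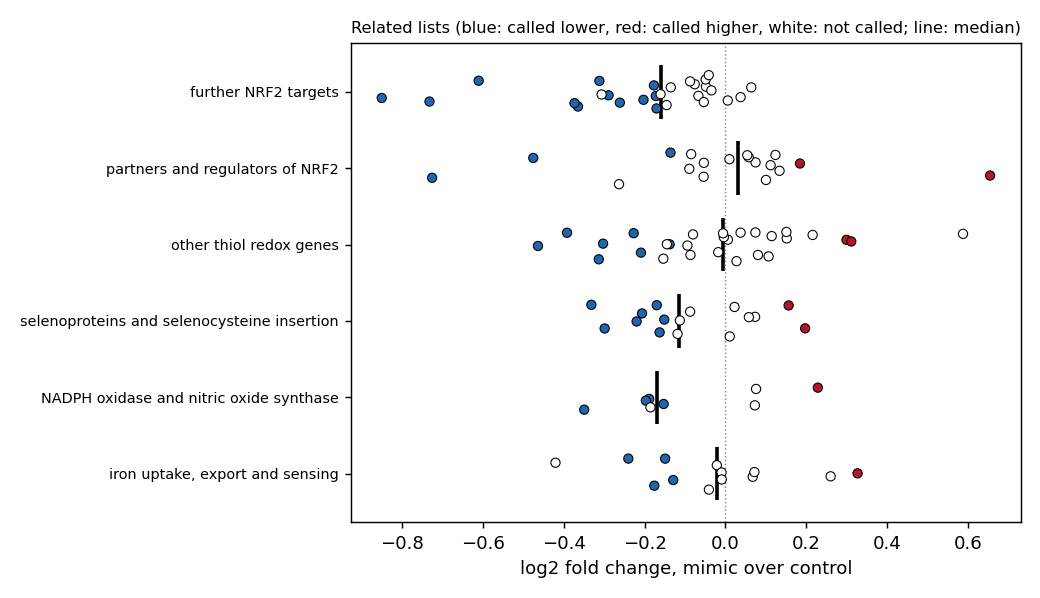
Log2 fold change, mimic over control, of the tested genes of 6 related lists, 1 point per gene (blue called lower, red called higher, white not called), with the median of each list as a line. The further NRF2 targets hold 12 blue points and 0 red ones, whereas the partners and regulators of NRF2 lie on both sides of 0.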

How the data were processed

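The values the authors deposited per library are log2 CPM. The submitters' processing notes name edgeR, featureCounts from Subread, and STAR, per the labels; their versions, the build, the annotation and the strand setting are not given in the sources used here. Every value corresponds to whole reads plus 0.5 over a scaled library total (within 0.01 read for 100% of values), and the scaled totals were 0.9704 to 1.0302 times the reads. The authors' deposited table also holds log2 fold changes with confidence limits, p-values and adjusted p-values. It calls 20 members lower and 0 higher, and 19 of these were called lower here too. The share of all genes that the authors' test calls was not counted. Both tests use the same libraries, so their overlap is not independent evidence. Prdx5 is called lower by the authors and was not called here, whereas Gss was called lower here and is not called by the authors. The deposited test scores (t and B), made by the authors, were not used.

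Linear models with a group term were fitted to the log2 CPM by limma (version 3.58.1, intensity trend, robust; R version 4.3.3, statmod version 1.5.0). A gene was kept where 5 or more libraries reached a log2 CPM of -1, p-values were adjusted by Benjamini-Hochberg over all 12969 kept genes, and calls were made below 0.05. The fit was tested on simulated data. CPM, shares and medians were computed from the deposited values, and intervals are limma's at 95%. The members and lists were chosen with earlier results of these data known. All members are described; of each related list up to 4 called genes with the smallest p are named, except 1 that is not reported here. Transcript lengths and exon overlaps are from GENCODE M21 (GRCm38), which may not be the annotation the authors used; the length trend was removed within each library by lowess (span 0.3). Promoters are RefSeq's (GRCm38.p6). Software for tables and plots was pandas 2.3.3, numpy 2.4.6 and matplotlib 3.10.9. No pair of replicates agreed within sampling noise (chi-square over its degrees of freedom 2.41 to 39.5). Alternatives covered scaling, filter, pseudocount, weighted voom, threshold, length, the replicate number as a block and omitted libraries; the correction by principal transcript was chosen after seeing the data.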

Additional observations from a re-analysis of the deposited data

Results flagged for a closer look

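In 68 groups of libraries (34 members in 2 groups each), 3 had 1 library apart from the others by Dixon's ratio of gap to range, close to the 1 in 20 that chance gives. Me1 was lowest in mimic replicate 6, with 1.50 CPM against 2.05 to 2.26 CPM in the other mimic libraries (ratio 0.767). Gss was highest in control replicate 3, with 18.6 CPM against 17.7 to 17.9 CPM in the other controls (ratio 0.769), and without that library it missed the threshold (adjusted p = 0.0676). Gpx1 was lowest in control replicate 4, with 1221 CPM against 1272 to 1285 CPM in the other controls (ratio 0.797).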

How the results depend on the processing

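The number of members called lower was 13 without a filter on low genes, 13 without mimic replicates 3, 4 and 6 (when 2 were higher), and 14 at an adjusted p below 0.01; under the other settings it lay between 18 and 23. With 1 library left out at a time it ranged from 18 to 23, with 0 higher and a median log2 fold change from -0.28 to -0.21, and 17 members were lower in every such fit. With the replicate number as a block, 23 members were lower, 0 were higher and the median was -0.27. Shares of all tested genes were not counted without a filter, with 1 library left out, with the block or at the stricter threshold. Libraries with the same number did not deviate together (correlations -0.0606 to 0.0623). This does not settle whether the numbers mark a pair, because the mimic libraries also differed along transcript length. Signs turned among 6 members, none of which was called under any setting run. Nfe2l2 stood at 0.0064 with voom, 0.007 with the block, 0.021 and 0.0352 with the length correction without and with the block, and 0.0011 with principal lengths. In the same order the length-corrected values were 0.0784, 0.0804 and 0.0487 for Prdx3, 0.0596, 0.0455 and 0.0313 for Hmox1, and -0.0223, -0.041 and -0.0233 for Sod2. Without mimic replicates 3, 4 and 6, Prdx3 stood at 0.0504, Prdx6 at 0.0199 and Me1 at 0.0196. With 1 library left out, Nfe2l2 ranged from -0.0266 to 0.0229, Prdx3 from -0.0461 to 0.0192 and Hmox1 from -0.0539 to 0.0078. The causes were not tested. Depth limits Txnrd2 and Gstp1, which were too low to test.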
